A study of Mus musculus with 12 samples.

Results

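Genes of mitochondrial fatty acid oxidation were followed in cell fractions sorted from glomeruli of wild type (WT) and Alport syndrome (AS) mice and labelled as glomerular endothelial cells (GEC). They are the 10 genes *Cpt1a*, *Slc25a20*, *Cpt2*, *Acadvl*, *Acadl*, *Acadm*, *Hadha*, *Hadhb*, *Acaa2* and *Etfdh*, chosen by name as enzymes and carriers of this pathway, and all 10 were among the 15768 genes listed in both deposited count tables. RNA-seq was done on 12 libraries from 6 mice, 3 WT and 3 AS, on the C57BL/6 strain at 4 months of age. The AS mice were Col4a5 -/-, that is without the α5 chain of the type IV collagen of the glomerular basement membrane, and the WT mice carried the wild type gene. All mice of both genotypes carried the TekCre tdTomato reporter, in which Cre under the *Tek* promoter switches on a red fluorescent protein. The reporter marks every cell in which *Tek* was once active, also in an ancestor, and *Tek* is known to be active in blood cell precursors as well as in endothelium. From each mouse a dim and a bright tdTomato fraction of digested glomeruli were sorted, which gave the groups WT-dim, AS-dim, WT-bright and AS-bright with 3 libraries each.

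Fatty acids enter mitochondria through the carnitine shuttle. *Cpt1a* encodes the outer membrane carnitine palmitoyltransferase, the regulated step, *Slc25a20* the translocase that carries acylcarnitines across the inner membrane, and *Cpt2* the inner transferase that restores the acyl-CoA. The chain is then shortened by an acyl-CoA dehydrogenase chosen by chain length (*Acadvl*, *Acadl* and *Acadm* for very long, long and medium chains), by the trifunctional protein (*Hadha* and *Hadhb*) and by the thiolase *Acaa2*, while *Etfdh* passes the electrons of the dehydrogenases to the respiratory chain. Proximal tubule cells of the kidney depend on this pathway for most of their energy, and endothelial cells are known to rely mainly on glycolysis while still using fatty acids.

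The counts on genes were 11440169 to 15074909 per library. The cells were checked by the summed levels of marker genes, in CPM, that is counts scaled to library sizes after TMM normalization. The 14 endothelial markers summed to 11060 to 19395 CPM in the bright libraries, to 741 to 1386 CPM in the WT-dim and to 232 to 326 CPM in the AS-dim libraries. Conversely, the 11 leukocyte markers found in both tables summed to 8720 to 15047 CPM in the WT-dim, 16837 to 19448 CPM in the AS-dim and only 59.4 to 155 CPM in the bright libraries. Thus the dim libraries did not show the marker profile of their label, and they are called here by their sort gate. The 17 proximal tubule markers summed to 9840, 2183 and 2092 CPM in WT-dim replicates 1 to 3, to 59.0, 650 and 41.4 CPM in AS-dim, to 4154, 708 and 1074 CPM in WT-bright and to 143, 979 and 157 CPM in AS-bright. No marker of these lists found in both tables was at 0 in all libraries of a group. WT-dim replicate 1 and WT-bright replicate 1, which came from the same mouse, therefore stood apart from the other 10 libraries by their tubule markers. Because whole fractions were sequenced, fewer cells of a type and less RNA per cell cannot be told apart.

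**Figure D1:**
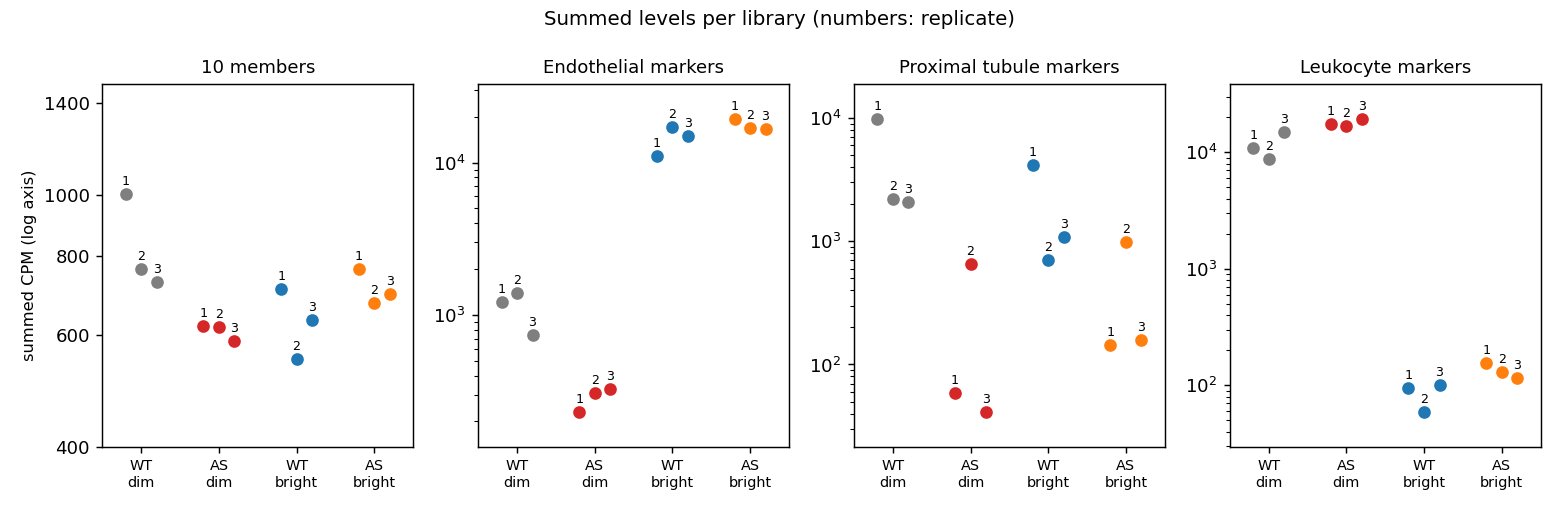
Summed CPM (log axis, the first panel on its own range) of the 10 fatty acid oxidation genes and of the endothelial, proximal tubule and leukocyte markers, one point per library with the replicate number above it. The AS-dim libraries have the lowest endothelial sums (232 to 326 CPM), WT-dim replicate 1 has the highest tubule sum (9840 CPM) and the highest sum of the 10 genes (1003 CPM), and leukocyte markers are below 156 CPM in all bright libraries.

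RefSeq promoter windows, from 250 bases before to 50 bases after the start of a gene on GRCm38.p6, were available for 9 of the 10 genes. They were searched on both strands for letters that factors of this pathway are known to recognise, and the stretches below are shown since they are the only matches to a nuclear receptor core motif (AGGTCA, read TGACCT on the other strand) or to the NRF1 element (GCGCANGCGC). The capitals mark the match, and each stretch reads 5′ to 3′ on the strand of its gene. The stretch of *Cpt1a* is at chr19:3323195-3323224 (plus strand), that of *Acadm* at chr3:153944864-153944893 (minus), that of *Acadvl* at chr11:70015498-70015527 (minus) and that of *Etfdh* at chr3:79628876-79628905 (minus). In Gencode M21 the stretches of *Acadm* and *Acadvl* lie outside annotated genes, that of *Cpt1a* in an intron of the gene and that of *Etfdh* in a retained-intron transcript of the gene.
Cpt1a: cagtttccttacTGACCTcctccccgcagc
Acadm: gTGACCTtcgggctccggtgacactgggca
Acadvl: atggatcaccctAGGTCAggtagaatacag
Etfdh: tgcttctaggGCGCATGCGCacacgcgaga
The core motif was found in 3 of 9 windows and in 16.3% of the 32851 promoter windows of the table, and the NRF1 element in 1 of 9 and in 4.60%. The 5 letters CCAAT were found in *Cpt1a* and *Etfdh* (37.4% of all windows). A direct repeat of the core motif with 1 base between (0.0396% of all windows), the ERR element TCAAGGTCA (0.423%, which contains the core motif), the cAMP response element TGACGTCA (1.79%) and the E-box CACGTG (7.15%) were in none of the 9. These are matches of letters only, and no binding was measured.

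*Hadha* and *Hadhb* stand head to head on chromosome 5, *Hadha* on the minus strand (chr5:30118304-30155162) and *Hadhb* on the plus strand (chr5:30155248-30184593). The whole interval between their annotated starts, at chr5:30155163-30155247 on the plus strand, is shown because both genes start from it. It has 85 bases, 69.4% of them G or C, with 9 CpG, and the capitals mark the part that also lies in the promoter window of *Hadha*.
Hadha-Hadhb: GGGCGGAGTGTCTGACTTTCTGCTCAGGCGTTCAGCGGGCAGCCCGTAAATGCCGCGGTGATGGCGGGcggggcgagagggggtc
The other sequence shown belongs to *Slc25a20*, whose level moved apart from those of the other genes below. It is the part of the promoter window before the Gencode start, chr9:108661886-108662087 on the plus strand, with 54.0% G or C in 202 bases. It holds none of the motifs searched, so that no letter is in capitals.
Slc25a20: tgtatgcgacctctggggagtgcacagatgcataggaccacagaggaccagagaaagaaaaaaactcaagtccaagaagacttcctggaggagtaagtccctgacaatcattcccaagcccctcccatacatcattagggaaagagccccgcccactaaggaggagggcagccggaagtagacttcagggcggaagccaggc

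Levels between genes were compared as CPM per kb of the union of a gene's Gencode exons. In WT-bright the order was led by *Acaa2* (29.7 ± 14.1 CPM per kb, SD, n = 3) and *Hadhb* (27.5 ± 3.02), followed by *Cpt1a* (20.4 ± 2.57), *Acadl* (16.0 ± 3.23), *Acadm* (12.1 ± 6.80), *Hadha* (11.8 ± 1.77) and *Slc25a20* (8.86 ± 1.97). *Cpt2* (2.28 ± 1.30), *Etfdh* (1.93 ± 0.498) and *Acadvl* (1.61 ± 0.597) were the lowest. Of the 9 pairs of neighbours in this order 7 overlapped between libraries, and the order was separated after *Hadhb* and after *Slc25a20*. *Cpt2*, *Etfdh* and *Acadvl* took the last 3 places in all 4 groups, and *Acaa2* took the first place in all groups but AS-dim. In AS-dim *Slc25a20* came first (23.8 ± 2.12 CPM per kb), ahead of *Cpt1a* (21.7 ± 2.79) with overlap, while it held place 6 or 7 in the other groups. With the longest transcript in place of the exon union *Slc25a20* kept these places, whereas in WT-bright *Acaa2* fell to place 3 behind *Hadhb* and *Cpt1a*.

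The summed level of the 10 genes was 1003, 764 and 728 CPM in WT-dim, 620, 620 and 587 CPM in AS-dim, 710, 550 and 635 CPM in WT-bright and 763, 675 and 699 CPM in AS-bright. The 3 AS-dim sums lay below the 3 WT-dim sums, whereas the sums of AS-bright and WT-bright overlapped. The genes differed in how much they varied within a group, from a pooled SD of 0.15 log2 CPM for *Cpt1a* and 0.18 for *Hadha* to 0.81 for *Acadm* and 1.07 for *Cpt2*.

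**Figure D2:**
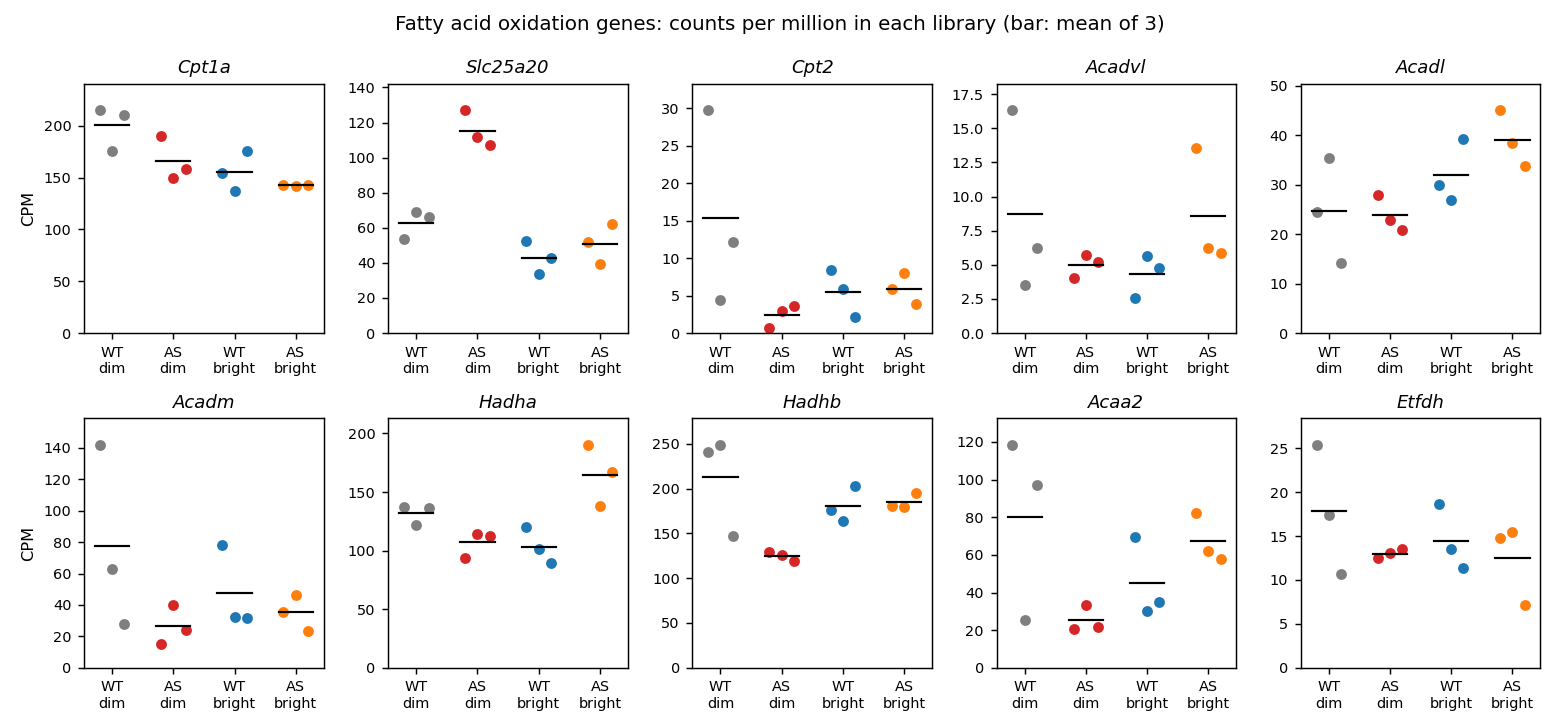
CPM (linear axis from 0) of each of the 10 genes in each library, 3 points per group with a bar at the mean. *Slc25a20* is highest in AS-dim (107 to 127 CPM), where *Cpt2* (0.636 to 3.59 CPM) and *Acaa2* (20.4 to 33.6 CPM) are low, and WT-dim replicate 1, the first point of its group, is the highest library of all for *Cpt2*, *Acadvl*, *Acadm*, *Acaa2* and *Etfdh*.

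The 4 comparisons were tested on the counts with edgeR's quasi-likelihood test, where a gene was called at a Benjamini-Hochberg adjusted p under 0.05 over all genes tested. The p-values measure the spread between 3 mice of a group. In the dim fraction, AS over WT, 1 of the 10 genes was higher and 0 were lower, where 2.21% of the 14637 genes tested were called higher and 6.42% lower. *Slc25a20* rose, and the other 9 genes had negative log2 fold changes, with a median of -0.65 over the 10 genes beside -0.02 over all genes tested. Of the 10 genes 5 had an unadjusted p under 0.05, a share that was not counted over all genes. DESeq2 called 1 higher and 4 lower, where it called 662 higher and 1551 lower of the 14637 genes. The likelihood ratio test called 1 higher and 3 lower, where it called 541 higher and 1405 lower of all genes. All AS-dim libraries lay above all WT-dim libraries for 1 gene (15.0% of all genes) and below them for 3 (16.2% of all genes). Without WT-dim replicate 1 the median of the 10 genes was -0.27 and no gene was called. Adjusted for the mean tubule marker level it was -0.13, and adjusted for the mean leukocyte marker level 0.10. Genotype cannot be separated from either marker level here, because both marker sums split WT-dim from AS-dim completely. Among the markers themselves the median log2 fold change was -4.11 for tubule, -2.22 for endothelium and 0.45 for leukocytes. The part of these cells in the shift of the 10 genes was not tested.

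In the bright fraction, AS over WT, 0 of the 10 genes were called, where 0.188% of 14396 genes were higher and 0.264% lower. Of the log2 fold changes 6 were positive and 4 negative, with a median of 0.10 beside -0.03 over all genes, and 1 gene (*Hadha*) had an unadjusted p under 0.05. The median was 0.28 without WT-bright replicate 1 and 0.032 without WT-bright replicate 2. DESeq2 and the likelihood ratio test called 0 of the 10 as well, where they called 1117 and 827 of all genes. The AS-bright libraries lay above the WT-bright libraries for 2 genes, *Hadha* and *Acadvl* (13.6% of all genes), and below them for 0 (10.9% of all genes).

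The bright fraction was compared with the dim one within each genotype. In WT mice 0 of the 10 genes were called in either direction or had an unadjusted p under 0.05, where 13.8% of 14247 genes were higher and 11.5% lower. DESeq2 and the likelihood ratio test called 0 of the 10, where they called 4147 and 3873 of all genes. With TMM over the 6 WT libraries the groups overlapped for all 10 genes, where 22.2% of all genes lay wholly higher and 19.7% wholly lower. On the CPM printed here, scaled over 12 libraries, *Cpt1a*, *Hadha* and *Slc25a20* lay wholly lower in the bright libraries, where 20.8% of all genes lay wholly higher and 21.0% wholly lower. The median was -0.40 beside -0.04 over all genes, -0.22 without WT-dim replicate 1 and -0.59 without WT-bright replicate 1. In AS mice 4 genes were higher in the bright fraction (*Acaa2*, *Acadl*, *Hadha* and *Hadhb*) and 1 was lower (*Slc25a20*), where 28.6% of 14052 genes were higher and 26.5% lower. The bright libraries lay above the dim libraries for 6 of the 10 genes (31.9% of all genes) and below them for 2 (30.5% of all genes). The median was 0.59 beside 0.02 over all genes. These shares over all genes were of the same order as the counts among the 10, and the AS-dim libraries serve in both this comparison and that of AS over WT in the dim fraction. The dim and bright libraries of a mouse are paired by its number in the labels, and with the mouse as a replicate block 5 genes were higher, with *Cpt2* added (log2 fold change 1.34, adjusted p = 0.0438), and 1 lower.

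**Figure D3:**
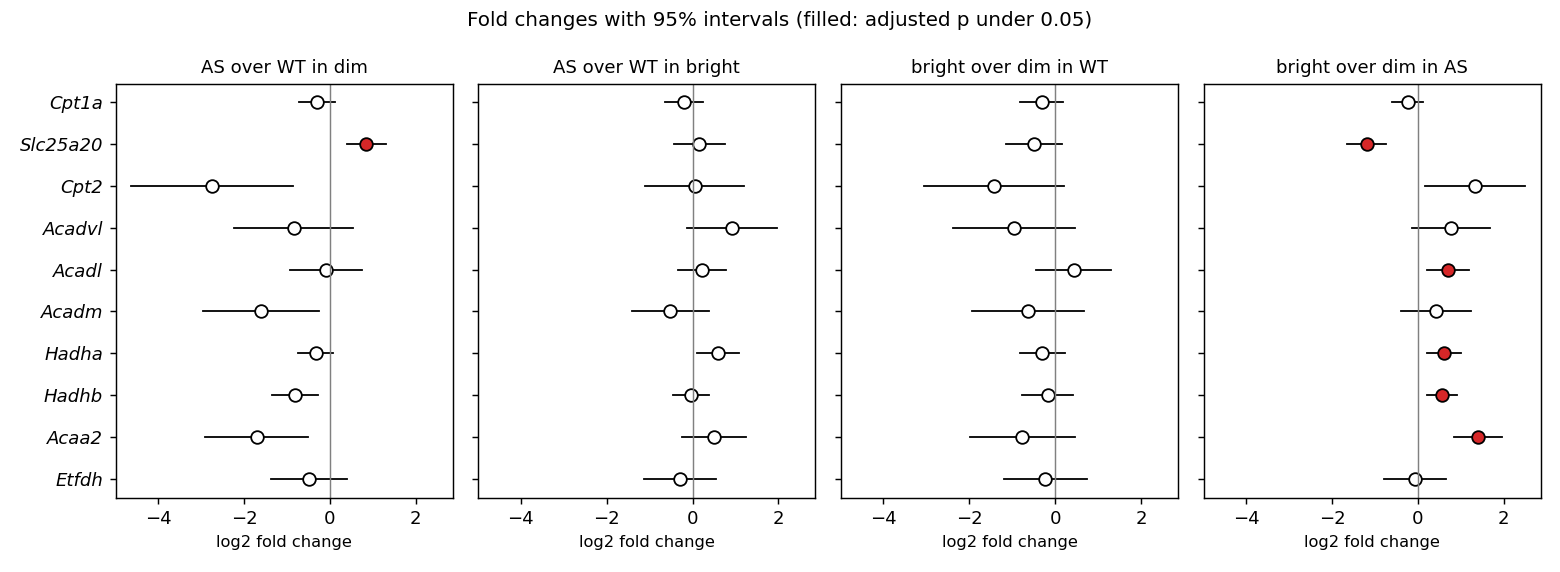
Log2 fold change (point) and 95% confidence interval (line) of each of the 10 genes in the 4 comparisons, filled where the adjusted p is under 0.05. In the dim fraction only *Slc25a20* is filled, at 0.85, in the bright fraction and in WT mice none is, and in AS mice 5 are, with *Slc25a20* at -1.19 and *Acaa2* at 1.41.

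*Slc25a20*, the translocase (chr9:108662088-108684641, plus strand, overlapped by no other annotated gene), had 53.4, 68.8 and 66.1 CPM in WT-dim, 127, 112 and 107 CPM in AS-dim, 52.5, 33.4 and 42.9 CPM in WT-bright and 51.7, 39.1 and 61.9 CPM in AS-bright. AS-dim stood above the other 9 libraries without overlap. The log2 fold change of AS over WT was 0.85 in the dim fraction (standard error 0.20, 1.80-fold, 95% interval 0.40 to 1.30, adjusted p = 0.0380 by edgeR's quasi-likelihood test). Its value in the bright fraction was 0.16 (standard error 0.27, adjusted p = 0.771). It was 0.37 without WT-bright replicate 1, -0.0050 without WT-bright replicate 2 and -0.020 without AS-bright replicate 3. Bright over dim was -1.19 in AS mice (standard error 0.20, adjusted p = 0.000658) and -0.49 in WT mice (standard error 0.29, adjusted p = 0.250). The call in the dim fraction was close to its threshold, with an adjusted p of 0.0513 under edgeR's version 3 fit, 0.0720 without WT-dim replicate 1 and 0.186 without AS-dim replicate 1, and it was lost on leaving out any library but WT-dim replicate 3. The fold change in the dim fraction stayed positive in all 15 alternatives (0.46 to 0.92). The leukocyte marker sums were higher in all AS-dim than in all WT-dim libraries, so that this covariate and genotype cannot be told apart. With the mean of these markers as a covariate the value was 0.46 (adjusted p = 0.657). Within WT-dim the library with the lowest leukocyte sum (replicate 2, 8720 CPM) had the highest *Slc25a20*. Within AS-dim the one with the highest sum (replicate 3, 19448 CPM) had the lowest. The part of leukocyte RNA was not tested.

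The other genes of the carnitine shuttle did not follow the translocase. *Cpt1a* (chr19:3322334-3385733, plus strand, no overlapping gene) had 176 to 215 CPM (median 210) in WT-dim, 149 to 190 CPM (median 159) in AS-dim, 137 to 176 CPM (median 154) in WT-bright and 142 to 143 CPM in AS-bright. Its groups lay close together, with a log2 fold change of AS over WT of -0.30 in the dim fraction (95% interval -0.73 to 0.12, adjusted p = 0.339) and of -0.20 in the bright fraction (-0.63 to 0.23, adjusted p = 0.588). *Cpt2* (chr4:107903981-107923610, minus strand, no overlapping gene) had 29.7, 4.39 and 12.1 CPM in WT-dim, 0.636, 2.98 and 3.59 CPM in AS-dim, 8.35, 5.84 and 2.17 CPM in WT-bright and 5.90, 7.96 and 3.86 CPM in AS-bright. All AS-dim values were below all WT-dim values, and the lowest rested on 9 counts. The log2 fold change of *Cpt2* in the dim fraction was -2.74 with a wide error (standard error 0.82, 95% interval -4.63 to -0.86), and its adjusted p of 0.0759 missed the threshold. DESeq2 gave it an adjusted p of 0.00854, while the value was -3.22 without WT-dim replicate 2 (adjusted p = 0.0481), -1.84 without WT-dim replicate 1 (adjusted p = 0.175) and with the proximal tubule markers as a covariate -0.51 (adjusted p = 0.993). Within a library the level of *Slc25a20* was 0.668 to 0.749 times that of *Cpt1a* in AS-dim and 0.244 to 0.434 times in the other 9 libraries, as a ratio of CPM.

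Of the acyl-CoA dehydrogenases, *Acadl* rose from the dim to the bright fraction in AS mice, and *Acadm* and *Acadvl* were not called in any comparison by edgeR's quasi-likelihood test on all libraries. *Acadl*, for long chains (chr1:66830839-66863277, minus strand), had 24.6, 35.3 and 14.1 CPM in WT-dim, 27.8, 22.8 and 20.8 CPM in AS-dim, 29.9, 26.9 and 39.3 CPM in WT-bright and 45.0, 38.4 and 33.7 CPM in AS-bright. In AS mice the bright libraries were all above the dim ones, by a log2 fold change of 0.70 (standard error 0.22, 1.62-fold, adjusted p = 0.0193), which lost its call without AS-dim replicate 2 (adjusted p = 0.0631), AS-dim replicate 3 (0.0656) or AS-bright replicate 1 (0.0706). In WT mice the log2 fold change was 0.43 (95% interval -0.45 to 1.31, adjusted p = 0.454), with 0.16 without WT-dim replicate 3 and 0.80 without WT-dim replicate 2, and AS over WT was -0.08 in the dim and 0.21 in the bright fraction. A processed pseudogene lies within *Acadl* on the same strand, so that its counts are less certain.

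*Acadm*, the medium-chain dehydrogenase (chr3:153922357-153944632, minus strand, no overlapping gene), had 142, 62.9 and 28.1 CPM in WT-dim, 14.8, 40.1 and 24.0 CPM in AS-dim, 78.2, 32.5 and 31.7 CPM in WT-bright and 35.8, 46.1 and 23.7 CPM in AS-bright. The first WT library of each subpopulation was the highest of its group, and those are the libraries with the highest tubule markers. AS over WT in the dim fraction was -1.60 (standard error 0.59, adjusted p = 0.130), -0.82 without WT-dim replicate 1, and 0.40 with the tubule markers as a covariate. It passed the threshold with DESeq2 (-1.61, adjusted p = 0.0410) and without WT-dim replicate 3 (adjusted p = 0.0406). AS over WT in the bright fraction was -0.52 (95% interval -1.41 to 0.37, adjusted p = 0.487), 0.10 without WT-bright replicate 1, and -1.39 with the leukocyte markers as a covariate (adjusted p = 0.0142). The part of tubule RNA in these values was not tested beyond this. *Acadvl*, for very long chains (chr11:70010183-70015411, minus strand), was low, with 3.55 to 16.3 CPM in WT-dim, 4.03 to 5.72 in AS-dim, 2.53 to 5.63 in WT-bright and 5.90 to 13.6 in AS-bright. The 3 AS-bright values of *Acadvl* lay above the 3 WT-bright values, with a log2 fold change of 0.93 that was within its error (95% interval -0.12 to 1.97, adjusted p = 0.282), and it was 0.42 without AS-bright replicate 1. In the dim fraction the log2 fold change of *Acadvl* was -0.84, and -0.0067 without WT-dim replicate 1. *Dvl2* overlaps *Acadvl* on the opposite strand.

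Both subunits of the trifunctional protein rose from the dim to the bright fraction in AS mice by a like amount. *Hadha* had 137, 122 and 136 CPM in WT-dim, 94.0, 114 and 113 CPM in AS-dim, 120, 101 and 89.1 CPM in WT-bright and 190, 138 and 167 CPM in AS-bright. *Hadhb* had 241, 249 and 147 CPM in WT-dim, 129, 126 and 119 CPM in AS-dim, 176, 164 and 203 CPM in WT-bright and 181, 180 and 195 CPM in AS-bright. AS-dim was the lowest group for *Hadhb* and AS-bright the highest for *Hadha*, each without overlap with its counterpart in the other subpopulation. Bright over dim in AS mice was 0.61 for *Hadha* (standard error 0.18, 1.53-fold, adjusted p = 0.0157) and 0.56 for *Hadhb* (standard error 0.15, 1.48-fold, adjusted p = 0.0102). The call of *Hadha* was lost without AS-dim replicate 1 (adjusted p = 0.0727) or AS-bright replicate 1 (0.0628), and that of *Hadhb* held without any 1 library. In WT mice the values were -0.30 for *Hadha* and -0.18 for *Hadhb*, with 95% intervals of -0.83 to 0.23 and -0.77 to 0.41.

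AS was compared with WT for both subunits, and the difference between them was not tested. In the dim fraction all AS values of both were below all WT values, with log2 fold changes of -0.33 for *Hadha* (95% interval -0.75 to 0.08, adjusted p = 0.290) and -0.81 for *Hadhb* (-1.34 to -0.27, adjusted p = 0.0690). In the bright fraction *Hadha* was 0.60 (standard error 0.22, adjusted p = 0.157), with all AS values above all WT values, and *Hadhb* was -0.04 (95% interval -0.46 to 0.38, adjusted p = 0.923). None of these passed the threshold in edgeR's quasi-likelihood test on all libraries, while *Hadhb* in the dim fraction passed with DESeq2 (adjusted p = 0.0249), with the likelihood ratio test (0.0465) and without WT-dim replicate 3 (0.0178). The ratio of *Hadhb* to *Hadha* in CPM was 1.47, 1.62 and 2.28 in WT-bright and 0.950, 1.30 and 1.17 in AS-bright, and 1.76, 2.04 and 1.08 in WT-dim and 1.37, 1.10 and 1.06 in AS-dim. It was lower in every AS-bright than in every WT-bright library, while the dim groups overlapped. *Garem2* overlaps *Hadha* on the opposite strand and a miRNA gene lies within *Hadhb*.

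*Acaa2*, the thiolase of the last step, had the largest rise of the 10 genes from the dim to the bright fraction in AS mice among those that were called. It had 118, 25.3 and 97.0 CPM in WT-dim, 20.4, 33.6 and 21.9 CPM in AS-dim, 69.6, 30.4 and 34.9 CPM in WT-bright and 82.3, 62.0 and 58.0 CPM in AS-bright. WT-dim replicate 2 lay among the AS-dim values, and the bright groups overlapped too. Bright over dim was 1.41 in AS mice (standard error 0.25, 2.65-fold, adjusted p = 0.000862), and this call held without any 1 library. In WT mice it was -0.76 (95% interval -1.99 to 0.47, adjusted p = 0.339), -0.39 without WT-dim replicate 1 and -1.26 without WT-bright replicate 1. AS over WT in the dim fraction was -1.70 (standard error 0.52, 95% interval -2.90 to -0.50), where the adjusted p of 0.0804 missed the threshold, DESeq2 gave 0.0121 and the likelihood ratio test 0.0261. It was -1.30 without WT-dim replicate 1 (adjusted p = 0.189), -2.16 without WT-dim replicate 2 (adjusted p = 0.0345), -0.51 with the tubule markers as a covariate (adjusted p = 0.984) and -1.15 with the leukocyte markers (adjusted p = 0.659). Its value in the bright fraction was 0.50 (95% interval -0.25 to 1.24, adjusted p = 0.421), and 1.01 without WT-bright replicate 1 (adjusted p = 0.0794). *Etfdh*, which accepts the electrons, was low and was not called in any comparison, with 10.6 to 25.3 CPM in WT-dim, 12.4 to 13.5 in AS-dim, 11.3 to 18.6 in WT-bright and 7.13 to 15.5 in AS-bright. Its log2 fold changes of AS over WT were -0.49 in dim (95% interval -1.36 to 0.39) and -0.29 in the bright fraction (-1.13 to 0.55), and -0.13 and -0.025 without replicate 1 of WT-dim and of WT-bright. Annotated genes overlap *Etfdh* on both strands.

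Whether genotype acted differently in the bright and dim fractions was tested as an interaction over all 12 libraries. Of the 10 genes 0 were called in either direction, where 2.96% of 15084 genes were called higher, that is AS over WT was more positive in bright, and 0.815% lower. Of the values 9 were positive, with a median of 0.89 beside 0.13 over all genes, and 5 of the 10 genes had an unadjusted p under 0.05, a share that was not counted over all genes. Markers of some cell types moved the same way in this test, with 14 of 14 endothelial markers positive (10 called higher, median 2.59), 17 of 17 tubule markers positive (0 called, median 1.74) and 4 of 6 podocyte markers called higher (5 positive, median 2.43). Mesangial and mural markers were 6 of 6 positive (0 called, median 1.19). Others lay near the median over all genes: leukocyte markers (7 of 11 positive, median 0.17), loop, distal tubule and collecting duct markers (4 of 5, 0.12), and erythroid and platelet markers (2 of 4, 0.0071). The part of these cells was not tested. The nearest to the threshold were *Hadha* (0.97, standard error 0.28, adjusted p = 0.0693) and *Acaa2* (2.25, standard error 0.66, adjusted p = 0.0796), and *Slc25a20* was the 1 negative value (-0.64, 95% interval -1.35 to 0.08, adjusted p = 0.333). DESeq2 and the likelihood ratio test each called 2 higher, where they called 830 and 811 of the 15084 genes higher. With the mouse as a replicate block 1 was called, *Acaa2* (2.13, adjusted p = 0.0294), where 646 of all genes were called higher. Without WT-dim replicate 1 the median was 0.53.

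Other genes of fatty acid and energy metabolism were examined by list. In the dim fraction, AS over WT, 6.42% of all genes tested were called lower and 2.21% higher, with a median log2 fold change of -0.02. Of 21 other mitochondrial beta-oxidation genes tested there, 7 fell and 0 rose, with a median of -1.31. The 3 largest were *Acad12*, an acyl-CoA dehydrogenase family member (-3.04, standard error 0.75, adjusted p = 0.0422), *Acot13*, an acyl-CoA thioesterase (-2.83, standard error 0.42, adjusted p = 0.0197), and *Etfb*, a subunit of the flavoprotein that feeds *Etfdh* (-2.70, standard error 0.53, adjusted p = 0.0262). Of 13 peroxisomal genes 4 fell and 1 rose, and the largest changes were in *Ehhadh*, the bifunctional enzyme (-4.47, adjusted p = 0.0197), *Acaa1b*, a peroxisomal thiolase (-4.18, adjusted p = 0.0179), and *Abcd3*, a peroxisomal transporter (-2.85, adjusted p = 0.0142). *Ehhadh* had 0.0707 to 0.663 CPM and *Acaa1b* 0.0707 to 0.479 CPM in AS-dim, so that these values rested on 8 counts or fewer per library. *Acad12* was near the floor as well, at 0.0798 to 1.41 CPM in AS-dim, on 1 to 17 counts per library. *Abcd3* was abundant, at 755 to 1402 CPM in WT-dim and 110 to 217 CPM in AS-dim. Of 16 TCA cycle enzymes 5 fell and 0 rose, led by *Suclg2* (-2.23, adjusted p = 0.0217), *Sdhc* (-1.36, adjusted p = 0.0320) and *Sdhd* (-1.24, adjusted p = 0.0241). The tubule markers fell in the same comparison, with 7 of 16 tested called lower and a median of -4.11, as did those of the loop, distal tubule and collecting duct (4 of 4 called lower, median -3.10) and of endothelium (8 of 13 called lower, median -2.22). With the tubule or the leukocyte markers as a covariate 0 genes of the 6 lists were called, and the median of the other mitochondrial genes was -0.24 and 0.079. Over all genes 1 and 0 were called with these covariates. Both marker sums separated WT-dim from AS-dim completely, so that these covariates and genotype cannot be told apart. Without AS-dim replicate 1 or AS-dim replicate 3 likewise 0 genes of the lists were called, while the median of the other mitochondrial genes was -1.29 and -1.27. Over all genes 0 and 1 were called then. Without WT-dim replicate 1, 6 of 22 other mitochondrial genes fell (median -0.66), 4 of 13 peroxisomal genes (median -0.12) and 3 of 16 TCA cycle enzymes (median -0.59), with 0 higher. Of all 15316 genes tested 673 were then lower and 113 higher.

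Among the smaller lists in the dim fraction, 1 of 4 ketone body genes fell, *Oxct1*, which starts ketone body use (-2.36, standard error 0.34, adjusted p = 0.0179), where 6.42% of all genes were called lower and 2.21% higher. *Bdh1*, which interconverts the ketone bodies, had -1.40 (adjusted p = 0.312). None of the 4 genes that set malonyl-CoA, the inhibitor of *Cpt1a*, was called, with *Acacb* at -2.07 (adjusted p = 0.186), *Mlycd* at -1.14 (0.236), *Acaca* at 0.51 (0.487) and *Fasn* at 0.05 (0.935). At an unadjusted p under 0.05, 1 of these 4 passed in edgeR's quasi-likelihood test. Of 9 regulators 1 fell, *Ppargc1a*, a coactivator of mitochondrial genes (-2.47, standard error 0.60, adjusted p = 0.0430), and 0 were called without WT-dim replicate 1. Lists of 4 and 9 genes are too short to set 1 call apart from the share over all genes. In the bright fraction, AS over WT, none of the 67 genes tested from these 6 lists was called by edgeR's quasi-likelihood test, and 12 had an unadjusted p under 0.05. There *Ppargc1a* had -2.52 (standard error 0.66, adjusted p = 0.0811), with 3.63 to 6.83 CPM in WT-bright and 0.0729 to 1.70 CPM in AS-bright.

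From the dim to the bright fraction in AS mice 11 of 22 other mitochondrial beta-oxidation genes rose and 1 fell, with a median of 0.72, where 28.6% of all genes were higher and 26.5% lower. The largest were *Cpt1c*, the form of carnitine palmitoyltransferase known from neurons (3.75, adjusted p = 0.000715), *Acad12* (3.49, adjusted p = 0.000390) and *Decr1*, which handles unsaturated chains (2.77, adjusted p = 4.6e-05). *Cpt1c* had 0 to 1.16 CPM in AS-dim and 5.09 to 6.63 CPM in AS-bright, and *Acad12* had 0.0798 to 1.41 CPM in AS-dim. Of 12 peroxisomal genes 4 rose and 3 fell, with *Abcd2*, a transporter of very long chains, at -5.96 (adjusted p = 2.0e-06), *Ehhadh* at 3.08 (0.00521) and *Decr2* at 2.08 (0.000108). *Abcd2* had 0.364 to 1.17 CPM in AS-bright and *Ehhadh* 0.0707 to 0.663 CPM in AS-dim, so that both values rest on few counts in 1 fraction. Of the 4 ketone body genes 2 fell, among them *Bdh1* (-2.41, adjusted p = 0.0403), and of the malonyl-CoA genes *Acacb* (2.80, adjusted p = 0.000513) and *Mlycd* (1.52, adjusted p = 0.00484) rose and *Fasn* (-1.11, adjusted p = 0.00110) fell. Of 8 regulators 2 rose and 2 fell, led by *Rxra* (1.39), *Nrf1* (-1.18) and *Tfam* (-0.83), and of 16 TCA cycle enzymes 4 rose and 1 fell, led by *Suclg2* (1.02) and *Dlst* (-1.02). The counts of the peroxisomal genes, the regulators and the TCA cycle enzymes were near or below those shares. In WT mice 6 of 68 genes of the 6 lists were called, 1 higher and 5 lower (7.35%), beside 13.8% and 11.5% over all genes. With the mouse as a replicate block 1 was higher and 14 were lower (20.6%), beside 16.1% and 15.1% over all genes. Without the block *Cpt1c* rose (3.87, adjusted p = 0.00200) and *Acot2* (-1.34, adjusted p = 0.0420), *Abcd2* (-3.68, adjusted p = 0.00117), *Sdhd* (-1.36, adjusted p = 0.00777) and *Dlst* (-0.79, adjusted p = 0.0415) fell. In both genotypes all 14 endothelial markers rose and all 11 leukocyte markers tested fell in this comparison, so that the levels of these markers and the fraction cannot be told apart. In AS mice 6 of 6 mesangial and mural markers were also called higher and 4 of 4 erythroid and platelet markers lower, while of 6 podocyte markers 3 were called higher and 2 lower.

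**Figure D4:**
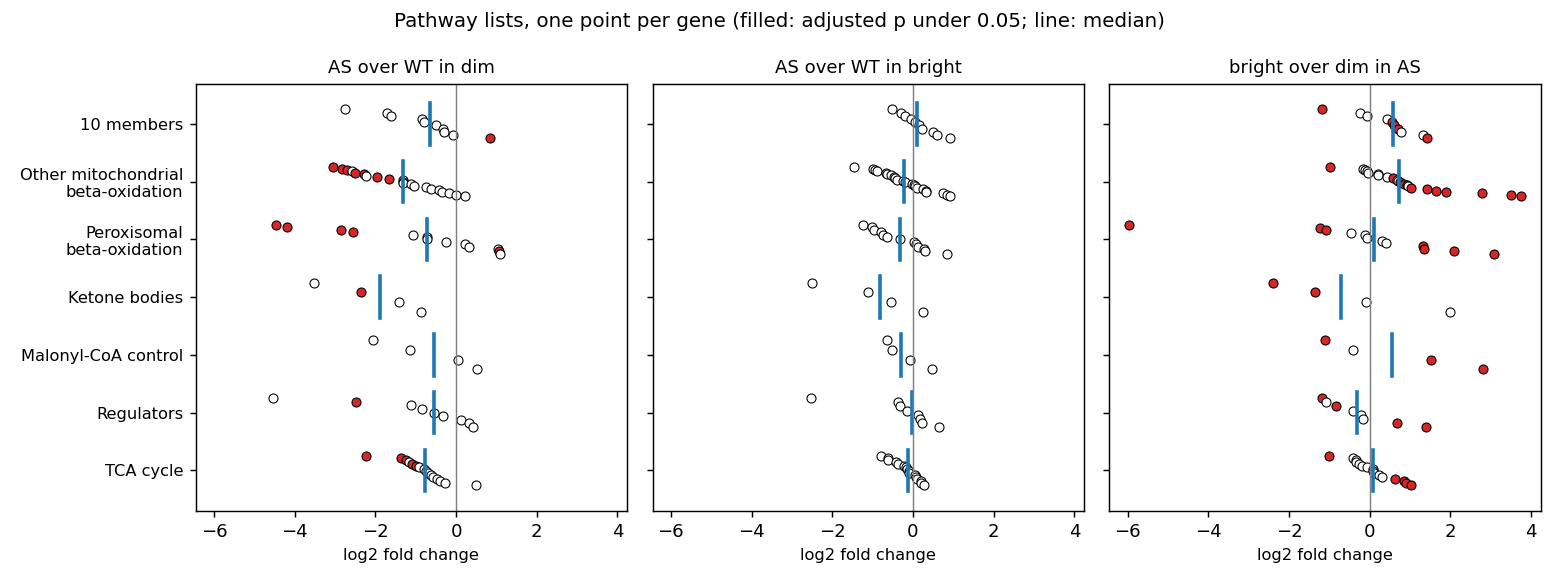
Log2 fold change of each gene of the 10 and of 6 wider lists in 3 comparisons, one point per gene, filled where the adjusted p is under 0.05, with a blue line at the median of the list. In the dim fraction the filled points lie to the left but for *Slc25a20* and 1 peroxisomal gene, in the bright fraction no point is filled, and in AS mice filled points lie on both sides.

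The effect of the setting on each fold change is shown for the 2 comparisons with calls. In the dim fraction the values of *Acadm*, *Acadvl* and *Etfdh* moved to the other side of 0 with either marker covariate and that of *Acadl* with the leukocyte covariate, whereas bright over dim in AS mice gave nearly the same values with the tubule covariate. Both marker sums separated WT-dim from AS-dim completely, so that in the dim fraction these covariates and genotype cannot be told apart.

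**Figure D5:**
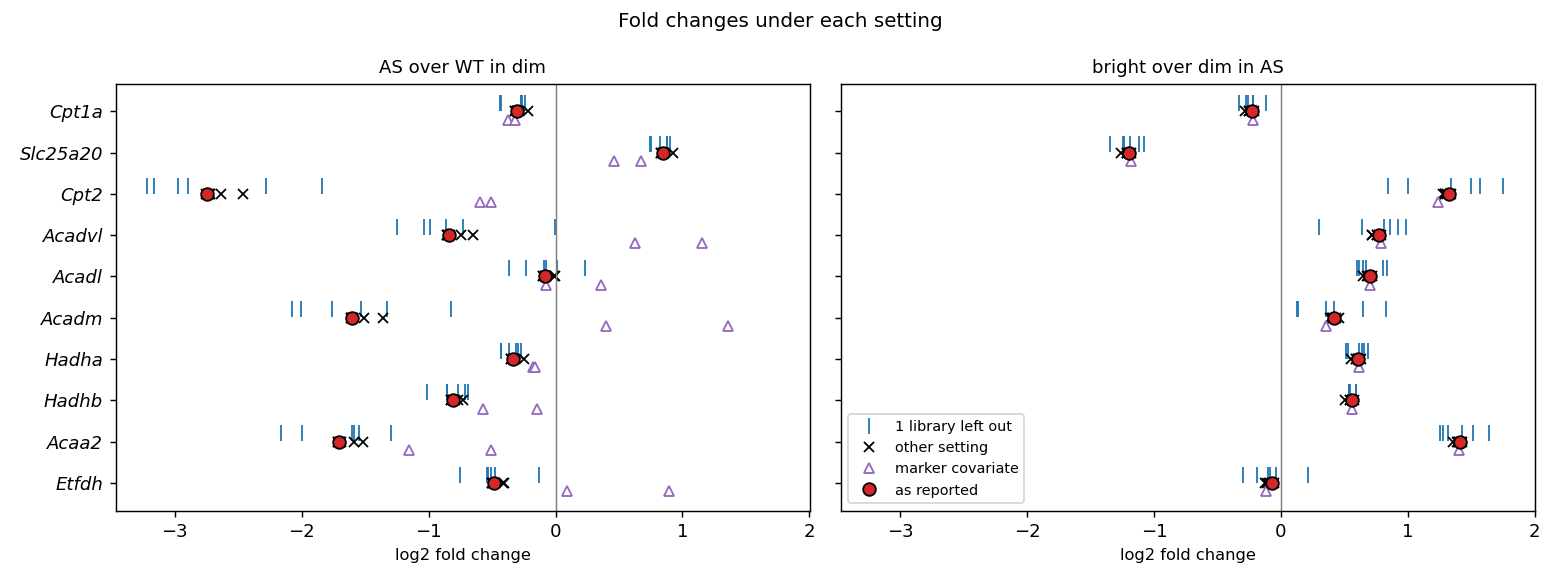
Log2 fold change of each of the 10 genes as reported (circle), under other settings (crosses), with 1 library left out (bars) and with marker covariates (triangles, where the leukocyte covariate is drawn for the dim fraction only). *Slc25a20* stays right of 0 in the dim fraction (0.46 to 0.92), and *Acaa2* between 1.25 and 1.64 in AS mice under the settings drawn.

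The mean profile of the 10 genes, each centred on its own mean log2 CPM over the 12 libraries, was highest in WT-dim replicate 1 (0.87), ranged from -0.55 to -0.14 in AS-dim and from -0.10 to 0.31 in AS-bright. Of the 10 genes *Hadha* (root mean square distance 0.29 log2 CPM over 12 libraries) and *Hadhb* (0.30) lay nearest to it, and *Slc25a20* (0.79) and *Cpt2* (0.95) farthest. Other genes were searched only if they were in none of the lists used here and had a mean log2 CPM above 1, so that the wider lists and the markers were left out. Of these the 5 with the most similar profile were *Aes* (0.16), *Guk1* (0.18), *Trap1* (0.19), *Atp5b* (0.19) and *Ahcy* (0.20). They were picked as the nearest of many genes, and all lay nearer to the mean than any of the 10 themselves.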

How the data were processed

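RNA of dim and bright tdTomato fractions, labelled as GEC, from 3 WT and 3 AS mice was sequenced by the authors as stranded poly-A libraries with paired ends. The authors aligned reads with STAR to GRCm38.p5 and Gencode M16, and the deposited counts are reads per gene, not normalized. The strand used for counting is not given in the sources used here. FastQC 0.11.5 and STAR 2.6.0c are named in the submitters' processing notes. The deposited RPKM values were computed by the authors per kb of a gene length that, for most of the 10 genes, adds up the exons of all transcripts, so that they were not used. The log2 fold changes and logCPM, the score (a likelihood ratio) and the p-values of the authors' own edgeR comparison were deposited too and were not used.

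The counts were tested with edgeR 4.0.16 in R 4.3.3 (filterByExpr, TMM, version 4 quasi-likelihood fit, Benjamini-Hochberg), with 92 spike-in rows left out of each table. AS over WT was fitted on the 6 libraries of a table, bright over dim on the 6 of a genotype and the interaction on all 12. Standard errors are the log2 fold change over the square root of F. CPM used TMM over 12 libraries, and log2 CPM a prior count of 2. Dim and bright libraries of a mouse are paired by the number in the labels, with correlations of their deviations of 0.0796 to 0.385 across 15084 genes, while WT and AS share only a replicate number. Dim and bright libraries of different mice had -0.210 to 0.0130 in WT and -0.286 to 0.189 in AS. In AS the correlations of matched and unmatched libraries thus overlapped, and the pairing rests on the labels. A chi-square of counts gave 32.2 to 114 per degree of freedom between replicates, so that none was the same library.

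The 10 genes and the lists were chosen with earlier results of these data known. All 10 are named, and from wider lists the 3 largest changes past the threshold and every gene of lists of up to 8, except that some genes of the wider lists are not reported here. Alternatives were RLE, library sizes alone, no filter, DESeq2 1.42.0, a likelihood ratio test, a replicate block, the mean of tubule or leukocyte markers as a covariate, each library left out and edgeR's version 3 fit, the last chosen after seeing the data. Scripts were tested on simulated data.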

Additional observations from a re-analysis of the deposited data

Results flagged for a closer look

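No group had more than 3 libraries, so that single libraries were not tested as outliers. Of the genes of the wider lists reported here, 4 had an effect of genotype that differed between the bright and dim fractions by the interaction term of edgeR's quasi-likelihood test, each with a more positive value in the bright fraction, where 2.96% of all genes were called so. These genes were *Ehhadh* (4.18, standard error 1.03, adjusted p = 0.0341), *Acad12* (3.81, standard error 0.90, adjusted p = 0.0319), *Hadh*, the dehydrogenase of short-chain hydroxyacyl-CoA (2.42, standard error 0.51, adjusted p = 0.0194), and *Abcd3* (2.09, standard error 0.45, adjusted p = 0.0214). In AS-dim *Ehhadh* had 1 to 8 and *Acad12* 1 to 17 counts per library, near the floor. All 4 were called lower in AS in the dim fraction, calls lost without AS-dim replicate 1 or AS-dim replicate 3, where 0 and 1 of all genes were called, with *Hadh* at 161 to 396 CPM in WT-dim and 40.5 to 73.8 CPM in AS-dim, beside 127 to 250 CPM in WT-bright and 190 to 205 CPM in AS-bright. In the same test 10 of 14 endothelial and 4 of 6 podocyte markers were called higher and all 17 tubule markers were positive, and their part was not tested. Leukocyte markers had a median of 0.17 there, beside 0.13 over all genes, with 0 of 11 called. With the mouse as a replicate block 11 of 69 genes of the wider lists were called higher, beside 4.28% of all genes. None of the 10 fatty acid oxidation genes passed the test without the block.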

How the results depend on the processing

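With 3 mice per group only large or even changes pass, and *Cpt2* and *Acadvl* rested on as few as 9 and 40 counts. The number of the 10 genes called, AS over WT in the dim fraction, went from 1 to 0 with no filter, with the replicate block, with edgeR's version 3 fit and with either marker covariate, and to 5 with DESeq2 and 4 with the likelihood ratio test. It was 0 to 3 with a library left out. The median there was -0.13 with the tubule and 0.10 with the leukocyte covariate, and -0.88 to -0.27 with a library left out. Both marker sums separated WT-dim from AS-dim completely, so that these covariates and genotype cannot be told apart there. The sign turned with the tubule covariate for *Acadm* (0.40), *Acadvl* (0.63) and *Etfdh* (0.089), and with the leukocyte covariate for *Acadm* (1.36), *Acadl* (0.36), *Acadvl* (1.15) and *Etfdh* (0.90), and *Acadl* ranged from -0.36 to 0.23 with a library left out.

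In the bright fraction the leukocyte covariate gave 1 call, a median of -0.049 and -0.71 for *Cpt2* and -0.043 for *Acaa2*, and the tubule covariate 0.49 for *Acadm* and 0.27 for *Etfdh*. The leukocyte sums separated WT-bright from AS-bright completely too, so that this covariate and genotype cannot be told apart. With a library left out the median ranged from 0.032 to 0.28, *Cpt2* from -0.37 to 0.55, *Acadm* from -0.77 to 0.10, *Hadhb* from -0.13 to 0.018 and *Slc25a20* from -0.020 to 0.37. The leukocyte markers separated bright from dim libraries completely, so that for bright over dim their covariate and the subpopulation cannot be told apart. In WT it gave a median of -1.55, 0.32 for *Cpt1a*, -5.40 for *Acadl*, 2.65 for *Hadha*, 6.23 for *Acaa2* and 4.17 for *Slc25a20*, and the tubule covariate 0.27 for *Acadm* and 0.18 for *Etfdh*. With a library left out *Acadm* ranged from -1.23 to 0.11 and *Etfdh* from -0.49 to 0.088. In AS the leukocyte covariate gave 0 calls, a median of 1.83, -1.19 for *Hadha*, -0.24 for *Hadhb* and 8.35 for *Etfdh*. With a library left out 3 to 5 genes were called, 3 without AS-bright replicate 1, and *Etfdh* ranged from -0.30 to 0.22.

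For the interaction DESeq2 and the likelihood ratio test gave 2 calls each, the replicate block 1, and leaving out a library 0 to 1. The median was 0.66 with the tubule covariate and 0.53 to 0.98 with a library left out. *Cpt1a* was -0.015 with library sizes alone and -0.065 to 0.25 with a library left out, *Acadl* -0.020 to 0.62 and *Etfdh* -0.11 to 0.51, and *Etfdh* was -0.058 with the tubule covariate. The replicate block, by mouse for bright over dim, added *Cpt2* in AS and *Acaa2* in the interaction and changed no other call of the 10 genes there, and the block by number in AS over WT, where it joins different mice, took away *Slc25a20* in the dim fraction (adjusted p = 0.0965).

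Over all genes, calls in the dim fraction went from 1263 to 2213 with DESeq2, 1946 with the likelihood ratio test, 494 with the block, 582 with the version 3 fit, and 1 and 0 with the tubule and leukocyte covariates. They were 0 without AS-dim replicate 1, 1 without AS-dim replicate 3, 484 without AS-dim replicate 2 and 786 to 1825 without a WT-dim library. In the bright fraction they went from 65 to 1117, 827, 16, 0, 0 and 1030 in the same order, and to 39 with no filter. They were 0 without WT-bright replicate 3, AS-bright replicate 1 or AS-bright replicate 3, and 274 to 281 without one of the other libraries. Those of bright over dim went to 0 with the leukocyte covariate, and those of the interaction from 569 to 1186 with DESeq2, 1114 with the likelihood ratio test, 877 with the block and 252 to 857 with a library left out. In WT mice 0 of the 10 genes lay wholly lower in the bright libraries with scaling over 6 libraries and 3 with scaling over 12, a comparison chosen after seeing the data. The cause of these differences was not tested.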
